A study of Mus musculus with 2 samples.

Results

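The genes described here were those of the STAT3 axis and the IL-20 receptors: Stat3, Socs3, Il6st, Osmr, Jak1, Il20ra, Il20rb and Il4ra, which were taken by their symbols and are 8 of the 19465 genes measured. Spatial transcriptomics was performed on 2 sections of back skin from mice treated with imiquimod (IMQ), a TLR7 agonist that induces psoriasis-like inflammation. In 1 section, labelled S1pr2 f/f, both alleles of the sphingosine 1-phosphate receptor gene S1pr2 were floxed and no Cre was present. In the other, labelled S1pr2 f/f K14-Cre, the same floxed alleles were combined with a Cre transgene under the keratin 14 promoter, which is active in basal keratinocytes, so that deletion was directed to the epidermis and its appendages and not to the dermis, fat or muscle. Mice of both genotypes were 8 weeks old, were depilated, and received 62.5 mg of 5% IMQ cream per day for 7 days. Each genotype was represented by 1 section, no section without IMQ was analysed, and the comparison asked how skin that lacks S1pr2 in keratinocytes differs under IMQ.

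IL-6 family cytokines such as IL-6, IL-11, oncostatin M and LIF signal through receptors that share the gp130 chain, encoded by Il6st, and oncostatin M can use a receptor of gp130 and the chain encoded by Osmr. The IL-20 subfamily (IL-19, IL-20 and IL-24), which acts mainly on epithelial cells, uses a receptor of the chains encoded by Il20ra and Il20rb, or of Il20rb with the IL-22 receptor chain Il22ra1. These receptors bind kinases such as JAK1, which phosphorylate the transcription factor STAT3. STAT3 induces Socs3, whose product binds gp130 and JAK and shuts the signal off, and in keratinocytes STAT3 is known for its part in wound healing and in psoriasis. The chain encoded by Il4ra receives IL-4 and IL-13 and signals mainly through STAT6. RNA levels, which were measured here, are not a measure of the phosphorylation of STAT3.

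The S1pr2 f/f section held 1096 spots with at least 500 unique molecular identifiers (UMIs, counts of captured molecules) and 5274645 UMIs in them, and the S1pr2 f/f K14-Cre section 947 spots and 2836709 UMIs, with medians of 4319 and 2380 UMIs per spot. Levels are given as CPM, the UMIs of a gene per 1000000 UMIs of the same region. S1pr2 itself had 154 and 54 UMIs, or 29.0 and 19.0 CPM, over all spots under tissue. Spots were classed by markers as keratinocyte-marker, dermal-marker (collagens and other fibroblast genes), adipocyte-marker or muscle-marker spots, which formed bands from the skin surface inwards in both sections. There were 317, 144, 228 and 240 such spots in S1pr2 f/f and 270, 143, 183 and 247 in S1pr2 f/f K14-Cre. A further class, of hair markers, rested on a median of 1 marker UMI per spot, and no level is read from it alone. Its spots are part of the other layers in ratios between layers, and of the marker classes used to find like genes. The 15 keratinocyte markers, by which the keratinocyte-marker spots were chosen, summed there to 96565 CPM in S1pr2 f/f and 49143 CPM in S1pr2 f/f K14-Cre. A spot holds several cells, and the layers were not pure. The dermal-marker spots held 30312 CPM of keratinocyte markers in S1pr2 f/f and 5351 CPM in S1pr2 f/f K14-Cre, and the latter also 30487 CPM of muscle markers. The adipocyte-marker spots held 14994 CPM of muscle markers in S1pr2 f/f and 60493.5 CPM in S1pr2 f/f K14-Cre, beside 2725 and 4596 CPM of adipocyte markers. These spots also held 25349 and 23419 CPM of dermal markers, which stood at 29804 and 44583 CPM in the dermal-marker spots. The 1226 olfactory, vomeronasal, taste and trace amine receptor genes, which skin should hardly express, averaged 1.5 CPM per gene in the keratinocyte-marker spots of S1pr2 f/f and 8.88 CPM in those of S1pr2 f/f K14-Cre. With 1 section per genotype the difference could not be checked against replicates. It was therefore not tested, and the 95% intervals (exact Poisson for levels, conditional binomial for ratios, Clopper-Pearson for shares) cover counting error only. Fewer cells of a type in a spot and less RNA of a gene per cell cannot be told apart. Each gene is read by its own probes, so levels are compared between places and not between genes.

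**Figure D1:**
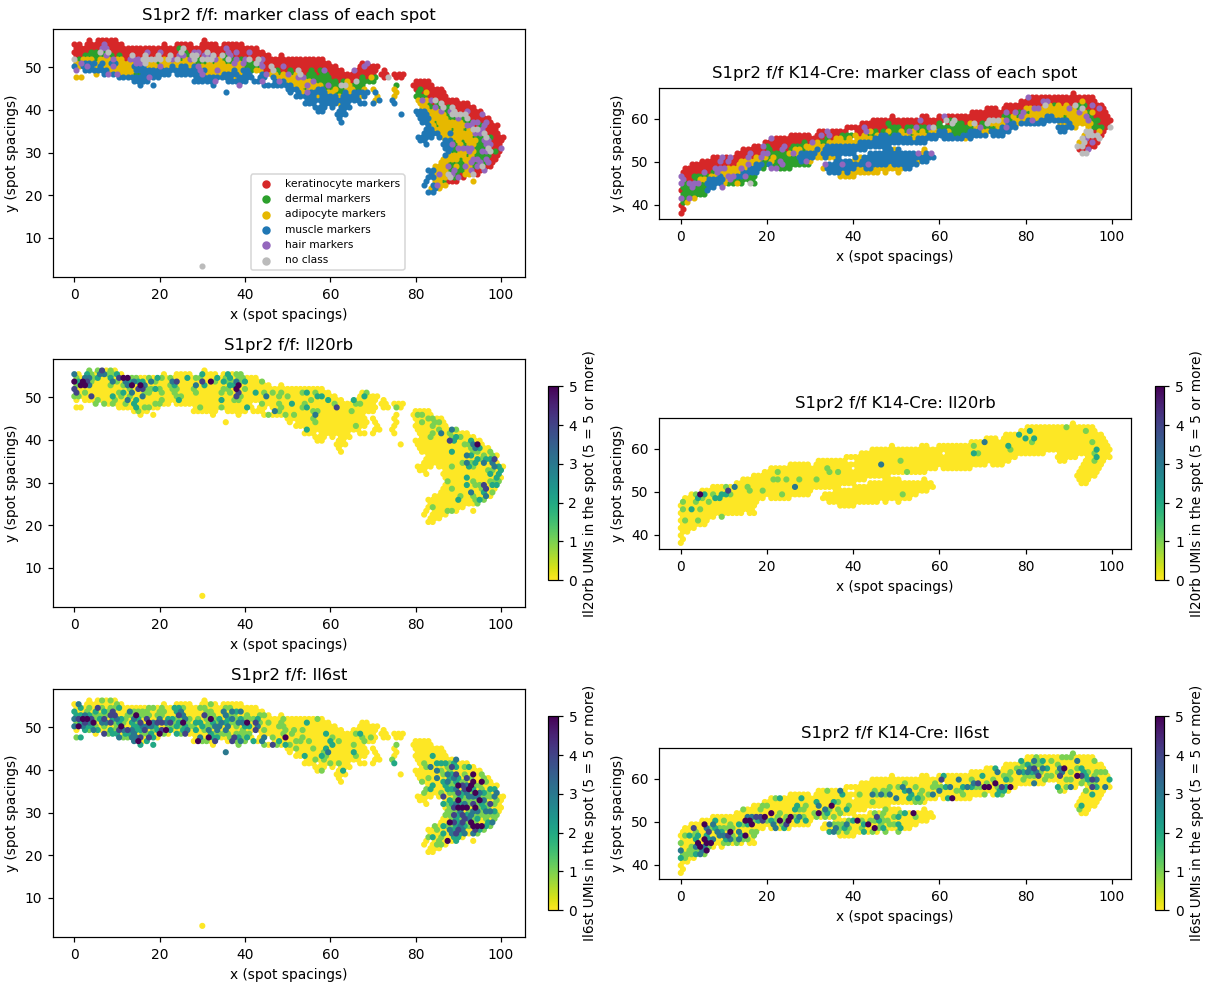
Positions of the spots with at least 500 UMIs in both sections, in units of the spacing between neighbouring spots on both axes, coloured by marker class in the upper row and by the UMIs of Il20rb and Il6st in the middle and lower rows. Il20rb UMIs lie mostly along the keratinocyte-marker side and are fewer in S1pr2 f/f K14-Cre (91 against 506 UMIs), while Il6st UMIs (744 and 1150) lie mostly below it.

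Within the skin, Il20rb and Il6st lay on opposite sides in both sections, and Il20ra went with Il20rb in S1pr2 f/f, on few UMIs. Il20rb and Il20ra in S1pr2 f/f were at least 1.5-fold higher in keratinocyte-marker spots than in the spots of all other layers, and Il6st was at least 1.5-fold lower. Of all 11998 genes with at least 30 UMIs, 11.1% were that much higher there and 40.5% that much lower, so a gene past the fold on the higher side was less usual than one on the lower side. Of the 7 members with at least 30 UMIs in S1pr2 f/f K14-Cre, 1, Il20rb, was at least 1.5-fold higher in keratinocyte-marker spots (32.9% of 12556 genes) and 2, Il6st and Socs3, were at least 1.5-fold lower (24.1%).

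Il20rb (ENSMUSG00000044244, GRCm38 chr9:100457719-100486473), the chain shared by both receptors of the IL-20 subfamily, had 262 UMIs or 145 CPM (128 to 164) in the keratinocyte-marker spots of S1pr2 f/f. Its level there was 67.6 CPM in dermal-marker, 58.8 CPM in adipocyte-marker and 45.9 CPM in muscle-marker spots, 3 values whose intervals overlapped and which all lay below the keratinocyte-marker value. The levels in S1pr2 f/f K14-Cre, in the same order of layers, were 56.8 CPM (44 UMIs), 33.3 CPM (15 UMIs), 18.8 CPM (10 UMIs) and 8.22 CPM (6 UMIs). The log2 ratio of keratinocyte-marker spots over all other layers was 1.18 (0.90 to 1.45) in S1pr2 f/f and 1.35 (0.72 to 1.98) in S1pr2 f/f K14-Cre, so that the enrichment was of like size within both sections, with intervals that overlapped. By distance, Il20rb in S1pr2 f/f was 109 CPM in spots within 1.5 spot spacings of a keratinocyte-marker spot, 69.6 CPM from 1.5 to 3 spacings, 46.0 CPM from 3 to 5 and 28.0 CPM beyond. In S1pr2 f/f K14-Cre it was 67.4 CPM (46.1 to 95.2) within 1.5 spacings, which was not below the keratinocyte-marker spots themselves, and 14.2, 7.84 and 2.34 CPM in the farther steps, on 11, 3 and 1 UMIs. Keratinocyte markers went in the same direction, from 96565 CPM in keratinocyte-marker to 17387 CPM in muscle-marker spots, and their part in the Il20rb counts of the deeper layers was not tested. Keratinocyte-marker spots were also split into differentiated-rich and basal-rich spots, at the median marker ratio of each section. Differentiated markers summed to 60166 and 17413 CPM in these spots of S1pr2 f/f. They summed to 11164 and 2592 CPM in those of S1pr2 f/f K14-Cre, so spots of the same kind were not alike between the sections. Differentiated-rich and basal-rich spots had Il20rb at 149 and 142 CPM in S1pr2 f/f and at 61.4 and 53.2 CPM in S1pr2 f/f K14-Cre. Neither section showed a difference beyond the intervals.

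Il20ra (ENSMUSG00000020007, GRCm38 chr10:19711673-19760053), the chain that pairs with Il20rb for IL-19, IL-20 and IL-24, was sparse, with 47 UMIs in S1pr2 f/f and 28 in S1pr2 f/f K14-Cre. It was highest in keratinocyte-marker spots of S1pr2 f/f, with 26 UMIs or 14.4 CPM (9.43 to 21.1), and it had 5 UMIs in dermal-marker, 10 in adipocyte-marker and 1 in muscle-marker spots. Its log2 ratio over the other layers was 1.23 (0.32 to 2.17), and at 14.4 CPM it stood above 99.9% of the 1226 chemosensory receptor genes. Under other settings that ratio ran from 0.0001 to 2.05. Counted in array rows down from the uppermost spots of S1pr2 f/f, Il20ra was 11.0 CPM (10 UMIs) at 0 to 1 rows. At 10 rows or more it was 14.5 CPM (12 UMIs), with intervals that overlapped. The keratinocyte-marker spots of S1pr2 f/f K14-Cre had 13 UMIs or 16.8 CPM (8.94 to 28.7), which was above 87.7% of the receptor genes, so no level clearly over this background is read there. UMIs of both IL-20 receptor chains were found together in 10 of the 1096 spots of S1pr2 f/f, all of them keratinocyte-marker spots (3.15% of 317, 1.52% to 5.72%), and in 2 of the 947 spots of S1pr2 f/f K14-Cre. After spots were thinned to 1000 UMIs, 0 of 978 and 1 of 870 spots held both, so the depth does not allow a comparison. A shared spot is not a shared cell.

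Il6st (ENSMUSG00000021756, GRCm38 chr13:112464070-112506860), which encodes the common signal chain gp130, had the reverse pattern. It stood at 88.8 CPM (75.6 to 104) in keratinocyte-marker spots of S1pr2 f/f, 318 CPM in dermal-marker, 340 CPM in adipocyte-marker and 270 CPM in muscle-marker spots. The values in S1pr2 f/f K14-Cre were 137 CPM (112 to 166), 358 CPM, 353 CPM and 246 CPM. In both sections every deeper layer lay above the keratinocyte-marker spots with no overlap of the intervals, while dermal-marker and adipocyte-marker spots did not differ beyond theirs. The log2 ratio of keratinocyte-marker spots over the other layers was −1.74 (−1.99 to −1.50) in S1pr2 f/f and −1.18 (−1.49 to −0.88) in S1pr2 f/f K14-Cre. By distance from the keratinocyte-marker spots, Il6st in S1pr2 f/f was 202 CPM within 1.5 spacings, 334 CPM from 1.5 to 3, 287 CPM from 3 to 5 and 346 CPM beyond. The same steps in S1pr2 f/f K14-Cre held 301, 366, 300.4 and 224 CPM (182 to 274 in the last), so that Il6st there was highest at 1.5 to 3 spacings and lower beyond. Some other IL-6 family receptor genes were also lower in keratinocyte-marker spots. Il11ra1, the IL-11 receptor, was at 48.3 against 238 CPM in S1pr2 f/f and 95.6 against 220 CPM in S1pr2 f/f K14-Cre. Lifr, the LIF receptor, was at 31.1 against 98.1 CPM and 32.3 against 80.8 CPM. Il6ra (log2 ratios −0.39 and −0.18) and Cntfr (−0.32 and 0.08) stayed within 1.5-fold in both sections. In all, 3 of 5 measured genes of that receptor list were at least 1.5-fold lower in the keratinocyte-marker spots of S1pr2 f/f, beside 40.5% of all genes. The median log2 ratio of the list there was −1.40 beside −0.37 for all genes.

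Osmr (ENSMUSG00000022146, GRCm38 chr15:6813568-6874968), the specific chain of the oncostatin M receptor, was found in every layer. Its level was 69.9 CPM (58.3 to 83.3) in keratinocyte-marker spots of S1pr2 f/f, 98.9 CPM in dermal-marker, 106 CPM in adipocyte-marker and 42.6 CPM in muscle-marker spots. The values in S1pr2 f/f K14-Cre were 76.2 CPM (58.0 to 98.3), 107 CPM, 93.8 CPM and 37.0 CPM. The muscle-marker spots were lowest in both sections, and the log2 ratio of these spots over the other layers was −1.01 (−1.53 to −0.52) and −1.25 (−1.89 to −0.66). Osmr in S1pr2 f/f did not differ beyond the intervals between differentiated-rich and basal-rich keratinocyte-marker spots, with 69.1 and 70.8 CPM. In S1pr2 f/f K14-Cre it was 20.5 CPM (7 UMIs) in the differentiated-rich and 120 CPM (52 UMIs) in the basal-rich spots, a log2 ratio of −2.56 (−3.94 to −1.41) that did not overlap the interval in S1pr2 f/f (−0.56 to 0.49). Those 52 UMIs lay in 24 spots. Osmr and Il6st were found together in 13.8% of the spots of S1pr2 f/f and 4.96% of those of S1pr2 f/f K14-Cre, but in 1.12% and 1.03% after thinning to 1000 UMIs, so no difference beyond depth is read from the shares.

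Il4ra (ENSMUSG00000030748, GRCm38 chr7:125552271-125579474), the signal chain for IL-4 and IL-13, had levels in S1pr2 f/f of 105 CPM (91.0 to 122) in keratinocyte-marker, 183 CPM in dermal-marker, 182 CPM in adipocyte-marker and 122 CPM in muscle-marker spots. The K14-Cre section had 172 CPM (144 to 204), 293 CPM, 253 CPM and 91.8 CPM. Dermal-marker and adipocyte-marker spots were the highest in both sections. Il13ra1, its partner for IL-13, went the other way, with 201 CPM in keratinocyte-marker spots against 122 CPM elsewhere in S1pr2 f/f and 270 against 88.7 CPM in S1pr2 f/f K14-Cre. Macrophage markers summed to 3422 and 4158 CPM in the dermal-marker spots of S1pr2 f/f and S1pr2 f/f K14-Cre and to 611 and 939 CPM in the keratinocyte-marker spots. In the adipocyte-marker spots they summed to 3686 and 3183 CPM, and in the muscle-marker spots to 2399 and 2446 CPM. The part of macrophage and dermal markers in the levels of Il4ra and Il6st was not tested.

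Jak1 (ENSMUSG00000028530, GRCm38 chr4:101151974-101265282), the kinase bound by all of these receptors, had like levels in the outer 3 layers of S1pr2 f/f and a lower one in its muscle-marker spots. Its level in S1pr2 f/f was 191 CPM (171 to 212) in keratinocyte-marker, 224 CPM in dermal-marker, 190 CPM in adipocyte-marker and 129 CPM in muscle-marker spots. That in S1pr2 f/f K14-Cre was 133 CPM (109 to 161), 97.7 CPM, 124 CPM and 118 CPM, with intervals that overlapped throughout. Stat3 (ENSMUSG00000004040, GRCm38 chr11:100886806-100939594) was likewise found in all layers, and the order of its values over the layers differed between the sections. It was highest in the keratinocyte-marker spots of S1pr2 f/f, with 439 UMIs or 244 CPM (221 to 268), and stood at 219 CPM in dermal-marker, 198 CPM in adipocyte-marker and 189 CPM in muscle-marker spots. It was lowest in the keratinocyte-marker spots of S1pr2 f/f K14-Cre, with 103 UMIs or 133 CPM (109 to 161), and stood at 138 CPM, 197 CPM and 157 CPM in the others. In S1pr2 f/f only the muscle-marker interval (162 to 220) lay clear of the keratinocyte-marker one, and in S1pr2 f/f K14-Cre none did. The log2 ratio of keratinocyte-marker spots over the other layers was 0.29 (0.11 to 0.47) in S1pr2 f/f and −0.31 (−0.64 to 0.01) in S1pr2 f/f K14-Cre, and the intervals did not overlap.

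Socs3 (ENSMUSG00000053113, GRCm38 chr11:117966079-117970336), the feedback inhibitor of this pathway, had 54.4 CPM in both keratinocyte-marker (98 UMIs) and dermal-marker (33 UMIs) spots of S1pr2 f/f, 80.6 CPM in adipocyte-marker and 52.7 CPM in muscle-marker spots, with intervals that overlapped. In S1pr2 f/f K14-Cre it had 63.3 CPM (46.8 to 83.7) in keratinocyte-marker, 120 CPM (90.1 to 157) in dermal-marker, 97.6 CPM in adipocyte-marker and 98.6 CPM in muscle-marker spots. Its log2 ratio of keratinocyte-marker spots over the other layers was −0.24 (−0.61 to 0.11) in S1pr2 f/f and −0.77 (−1.24 to −0.31) in S1pr2 f/f K14-Cre. Within the keratinocyte-marker spots of S1pr2 f/f K14-Cre, Socs3 had 29.2 CPM (10 UMIs) in differentiated-rich and 90.2 CPM (39 UMIs) in basal-rich spots, against 58.5 and 49.9 CPM in S1pr2 f/f. Socs3 is a textbook STAT3 target, and its promoter is shown because it was the only one of the 8 whose RefSeq window, from 250 bases before to 50 after the start site, held the core letters of a STAT binding site, TTCNNNGAA, a palindrome that reads the same on both strands. The match starts at position −154 from the start site, on the minus strand at chr11:117969512-117969520 of GRCm38, and is set in capitals in the surrounding 49 bases (chr11:117969492-117969540).
Socs3 promoter: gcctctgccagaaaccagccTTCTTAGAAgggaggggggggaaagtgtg
Of all 32851 promoter windows of the same length, 2726 or 8.30% held such a match. The window is that of the start site used in the RefSeq promoter table of GRCm38.p6, and it lies inside the annotated span of Socs3, which extends further upstream. A match is a description of letters, and no binding was measured.

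**Figure D2:**
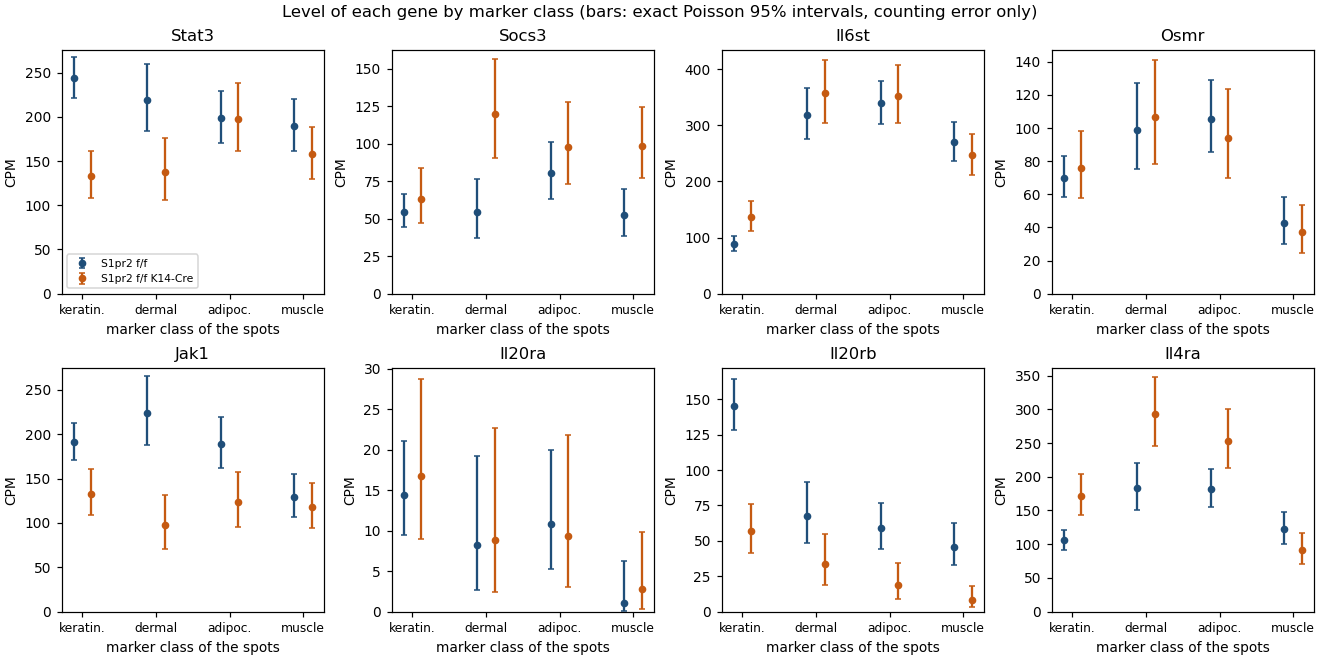
Level of each of the 8 genes in CPM by marker class of the spots, for S1pr2 f/f and S1pr2 f/f K14-Cre, with exact Poisson 95% intervals of the counts as bars. Il20rb is highest in keratinocyte-marker spots of both sections (145 and 56.8 CPM), Il6st is lowest there (88.8 and 137 CPM), and Stat3 in keratinocyte-marker spots is 244 CPM in S1pr2 f/f and 133 CPM in S1pr2 f/f K14-Cre.

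**Figure D3:**
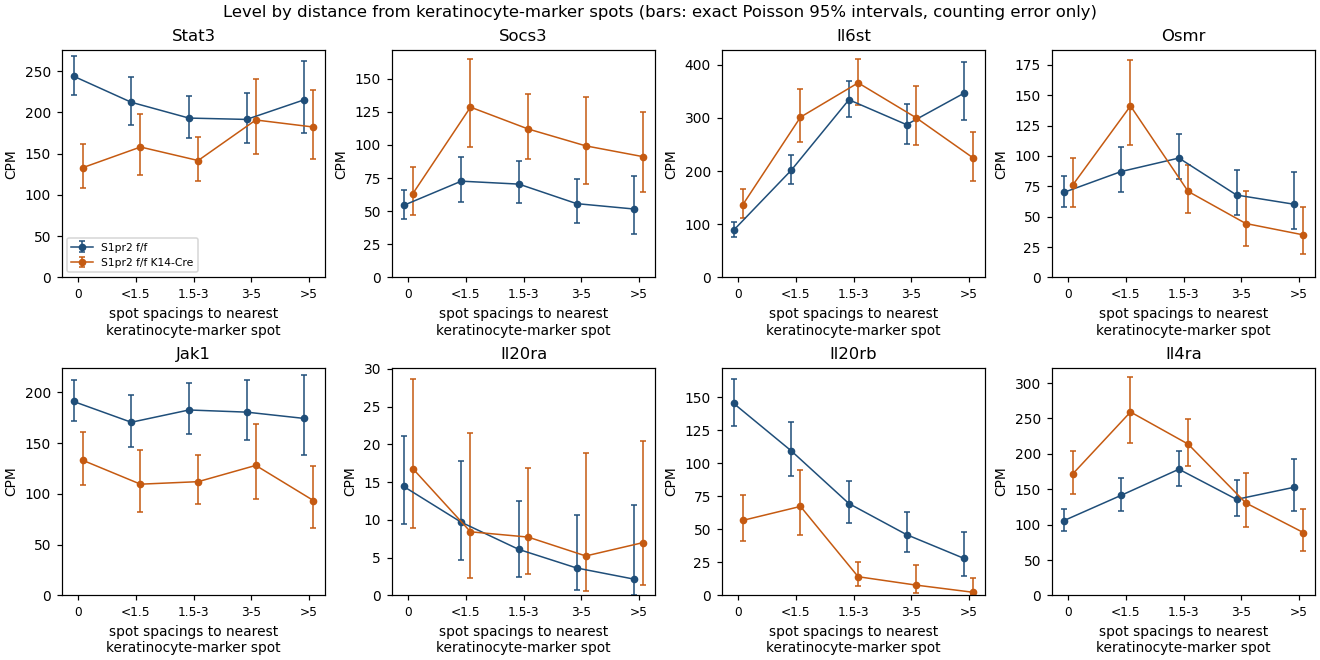
Level of each gene in CPM by distance to the nearest keratinocyte-marker spot, in spot spacings, where 0 stands for the keratinocyte-marker spots themselves, with exact Poisson 95% intervals as bars. Il20rb in S1pr2 f/f goes down from 145 to 28.0 CPM with distance. Il6st is lowest at 0 in both sections, reaches 334 and 366 CPM at 1.5 to 3 spacings, and beyond 5 spacings is 346 CPM in S1pr2 f/f and 224 CPM in S1pr2 f/f K14-Cre, while Osmr in S1pr2 f/f K14-Cre is highest, at 141 CPM, next to keratinocyte-marker spots.

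Over the whole section, 1 member, Socs3, was at least 1.5-fold higher in S1pr2 f/f K14-Cre than in S1pr2 f/f, and 2, Jak1 and Il20rb, were at least 1.5-fold lower. Of 16799 genes with at least 30 UMIs, 39.8% were that much higher and 12.5% that much lower. The median log2 ratio of all these genes was 0.34, and that of the chemosensory receptor genes among them 1.58, so that genes in general stood higher per UMI in S1pr2 f/f K14-Cre. Scaling by TMM, which is meant to bring the bulk of genes together, moved every log2 ratio of the whole section by −0.37. It moved those of the keratinocyte-marker spots by −0.83. The median log2 ratio of all genes in these spots was only 0.25, so TMM shifted ratios there by more than that median. The composition of the sections also differed, with muscle markers at 17908 CPM in S1pr2 f/f and 58429 CPM in S1pr2 f/f K14-Cre and keratinocyte markers at 52458 and 18347 CPM.

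Il20rb was the member that differed most over the section per UMI, a rank that TMM scaling, which moves all members alike, could not change. It had 95.9 CPM (87.8 to 105, 506 UMIs) in S1pr2 f/f and 32.1 CPM (25.8 to 39.4, 91 UMIs) in S1pr2 f/f K14-Cre, a log2 ratio of −1.58 (−1.92 to −1.26), or −1.92 relative to the median of all genes. When each section was divided along its length into 4 segments of equal numbers of spots, which are not replicates, Il20rb was 81.3 to 110 CPM in the segments of S1pr2 f/f and 18.6 to 42.3 CPM in those of S1pr2 f/f K14-Cre, with no overlap. It was lower in every layer, by log2 ratios of −1.36 (−1.85 to −0.89) in keratinocyte-marker, −1.02 (−1.98 to −0.14) in dermal-marker, −1.65 (−2.79 to −0.66) in adipocyte-marker and −2.48 (−4.01 to −1.24) in muscle-marker spots. In keratinocyte-marker spots the segments were 117 to 174 CPM against 0 to 88.5 CPM, the latter on only 32, 0, 5 and 7 UMIs. Under 11 other settings of scaling, background, spot weight and layer definition the log2 ratio in keratinocyte-marker spots ran from −2.18 to −0.64. Keratinocyte markers differed in the same direction in these spots (96565 and 49143 CPM), and differentiated markers more so (39726 and 6380 CPM). Keratinocyte markers were also lower in the dermal-marker (30312 and 5351 CPM), adipocyte-marker (24102 and 4756 CPM) and muscle-marker spots (17387 and 2149 CPM). The part of these markers in the Il20rb ratios of any layer was not tested. Il20ra, the other chain, had 8.91 CPM (6.55 to 11.8) and 9.87 CPM (6.56 to 14.3), a log2 ratio of 0.15 (−0.58 to 0.85) that allows a difference in either direction. Under other settings it ran from −0.78, less the mean receptor gene, to 1.02, with spots thinned. Il22ra1, the alternative partner of Il20rb, had 38.9 and 55.5 CPM in keratinocyte-marker spots, a log2 ratio of 0.52 (−0.07 to 1.08) that turned to −0.31 with TMM scaling.

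Stat3 had 216 CPM (203 to 229, 1138 UMIs) in S1pr2 f/f and 155 CPM (141 to 170, 439 UMIs) in S1pr2 f/f K14-Cre, a log2 ratio of −0.48 (−0.64 to −0.32) over the section. By layer the log2 ratio was −0.87 (−1.20 to −0.56) in keratinocyte-marker, −0.67 (−1.13 to −0.23) in dermal-marker, −0.01 (−0.37 to 0.35) in adipocyte-marker and −0.27 (−0.62 to 0.08) in muscle-marker spots. The intervals of the keratinocyte-marker and adipocyte-marker spots did not overlap, and those of the dermal-marker spots overlapped both neighbours. Muscle markers in the adipocyte-marker spots differed between the sections (14994 and 60493.5 CPM), and their part in the ratio there was not tested. Segments of keratinocyte-marker spots had 226 to 275 CPM in S1pr2 f/f and 95.1 to 196 CPM in S1pr2 f/f K14-Cre, and did not overlap. Those of S1pr2 f/f K14-Cre rested on 48, 12, 20 and 23 UMIs. Both kinds of keratinocyte-marker spots were lower, from 226 to 120 CPM in basal-rich and from 260 to 149 CPM in differentiated-rich spots. These kinds were set by the median of each section, and were not alike between the sections. Under the 11 other settings the log2 ratio in keratinocyte-marker spots ran from −1.70 to −0.33. A Stat3 UMI was found in 56.2% of the keratinocyte-marker spots of S1pr2 f/f (50.5% to 61.7%) and 21.5% of those of S1pr2 f/f K14-Cre (16.7% to 26.9%). After thinning to 1000 UMIs the shares were 18.5% (14.2% to 23.5%) and 13.0% (9.07% to 17.9%), so that at equal depth the gap in shares was smaller and within the intervals.

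Jak1 had 182 CPM (171 to 194) in S1pr2 f/f and 117 CPM (104 to 130) in S1pr2 f/f K14-Cre, a log2 ratio of −0.64 (−0.83 to −0.46). By layer the log2 ratio was −0.52 (−0.85 to −0.20) in keratinocyte-marker, −1.20 (−1.72 to −0.70) in dermal-marker, −0.61 (−1.04 to −0.20) in adipocyte-marker and −0.13 (−0.55 to 0.29) in muscle-marker spots. Its segments overlapped, with 119 to 254 CPM in S1pr2 f/f and 104 to 142 CPM in S1pr2 f/f K14-Cre, so the difference was not larger than the spread along a section. Jak2, Jak3 and Tyk2, the other kinases of the family, all stayed within 1.5-fold over the section. In keratinocyte-marker spots Jak3 (0.78, −0.33 to 1.85) and Tyk2 (0.96, 0.38 to 1.52) were past the fold on the higher side, which with TMM scaling became −0.05 and 0.13, while Jak2 was at −0.21.

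Socs3 was higher in S1pr2 f/f K14-Cre, with 61.4 CPM (54.9 to 68.5) and 96.6 CPM (85.5 to 109), a log2 ratio of 0.65 (0.42 to 0.89). Relative to the median of all genes this was 0.31, and with TMM scaling 0.28, both under 1.5-fold. Its segments did not overlap, at 52.8 to 64.6 CPM in S1pr2 f/f and 67.7 to 127 CPM in S1pr2 f/f K14-Cre. The difference was in dermal-marker spots (1.14, 0.49 to 1.81) and muscle-marker spots (0.91, 0.35 to 1.47), and was not resolved in adipocyte-marker (0.28, −0.26 to 0.81) or keratinocyte-marker spots (0.22, −0.31 to 0.73, and −0.61 with TMM scaling). Basal-rich and differentiated-rich keratinocyte-marker spots, set by the median of each section, went opposite ways per UMI. The log2 ratio was 0.85 (0.19 to 1.51) in the former and had an interval of −2.14 to −0.02 in the latter (58.5 and 29.2 CPM). Spots of the same kind differed in differentiated markers between the sections, and the part of this was not tested. Stat3 and Socs3 thus differed in opposite directions over the section and in the dermal-marker spots.

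In keratinocyte-marker spots, Il6st and Il4ra were at least 1.5-fold higher and Stat3 and Il20rb at least 1.5-fold lower in S1pr2 f/f K14-Cre, where 36.6% of 9796 genes were that much higher and 18.5% that much lower. Il6st there went from 88.8 to 137 CPM, a log2 ratio of 0.62 (0.26 to 0.99), and Il4ra from 105 to 172 CPM, a log2 ratio of 0.70 (0.37 to 1.03). Relative to the median of all genes in these spots the ratios were 0.37 and 0.45, while with TMM scaling both turned, to −0.20 and −0.12. Il6st also turned to −0.24 when only spots with at least 5% of their UMIs from keratinocyte markers were used. Over the section Il6st had 218 and 262 CPM, with a log2 ratio of 0.27 (0.13 to 0.40), or −0.07 relative to the median of all genes and −0.10 with TMM scaling. Il4ra had 137 and 180 CPM, a log2 ratio of 0.39 (0.22 to 0.55), or 0.05 relative to that median. The Il4ra segments ran from 93.9 to 198 CPM in S1pr2 f/f and from 94.8 to 341 CPM in S1pr2 f/f K14-Cre, and in both sections the segment at the far end was highest. Osmr had 78.3 and 75.1 CPM, a log2 ratio of −0.06 (−0.31 to 0.18), with segments that overlapped. As for Socs3, both kinds of keratinocyte-marker spots went opposite ways per UMI, with 0.76 (0.20 to 1.32) in basal-rich and −1.76 (−3.13 to −0.63) in differentiated-rich spots. The same limit applies: differentiated-rich spots held 60166 CPM of differentiated markers in S1pr2 f/f and 11164 CPM in S1pr2 f/f K14-Cre.

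**Figure D4:**
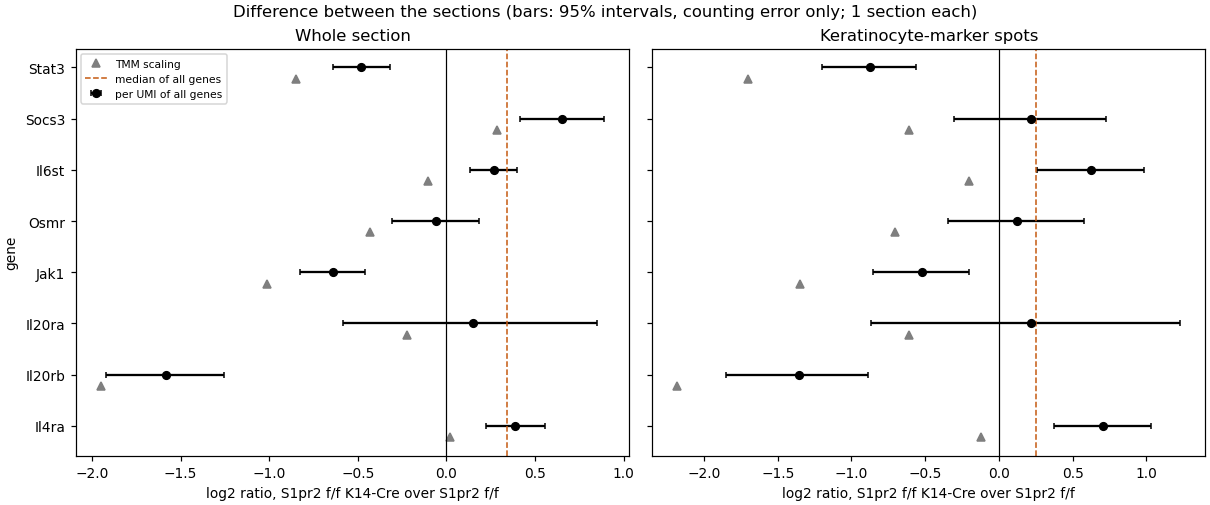
Log2 ratio of S1pr2 f/f K14-Cre over S1pr2 f/f for each gene, over the whole section and in keratinocyte-marker spots, scaled per UMI of all genes (points with 95% intervals of the counts) and by TMM (triangles), with the median of all genes as a dashed line (0.34 and 0.25). Il20rb lies farthest to the left in both panels (−1.58 and −1.36), and every ratio above 0 in keratinocyte-marker spots (Socs3, Il6st, Osmr, Il20ra and Il4ra) lies below 0 with TMM.

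The other genes of the pathway were counted in 9 lists of 71 genes. Beside these counts, 39.8% of all genes were at least 1.5-fold higher over the section and 12.5% that much lower. Of the 7 IL-6 family ligands, 4 were at least 1.5-fold higher in S1pr2 f/f K14-Cre over the section and 0 lower, with a median log2 ratio of 0.81 beside 0.34 for all genes. These were Il11 (54 against 25 UMIs, log2 ratio 2.01, 1.30 to 2.75), Clcf1 (35 against 21), Il27 (22 against 15) and Ctf1 (47 against 50). Their counts were of the order of the chemosensory receptor genes, which averaged 16.9 UMIs per gene in S1pr2 f/f K14-Cre and 11.7 in S1pr2 f/f. Of the 5 measured IL-6 family receptors only Il6ra, the IL-6 receptor, passed the fold, with 56.3 CPM in S1pr2 f/f and 33.1 CPM in S1pr2 f/f K14-Cre (log2 ratio −0.76, −1.12 to −0.43). Of the IL-20 subfamily and IL-10 family ligands, Il19 and Il10 reached 30 UMIs. Il19 had 49 and 18 UMIs (log2 ratio −0.55, −1.42 to 0.26) and Il10 had 17 and 32 UMIs (1.81, 0.92 to 2.75). The counts of Il10 were also of the order of the chemosensory receptor genes, whose median log2 ratio was 1.58. In keratinocyte-marker spots Il19 was past the fold on the higher side, with 20 and 14 UMIs (0.70, −0.39 to 1.76), and at −0.12 with TMM scaling. All 4 of their other receptor chains stayed within 1.5-fold over the section. In the IL-4 and IL-13 list, Il4 (22 and 19 UMIs) and Il2rg (20.7 and 31.4 CPM) were past it on the higher side, and the counts of Il4 were of that same order.

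Of the 15 further inhibitors, Pias2 (46.4 and 70.5 CPM), Ptpn2 (31.3 and 49.0 CPM) and Socs2 (29 and 25 UMIs) were at least 1.5-fold higher over the section, beside 39.8% of all genes. Cish (30.7 and 18.3 CPM) and Socs4 (56.1 and 35.6 CPM) were at least 1.5-fold lower, beside 12.5% of all genes. The median log2 ratio of the list was 0.03. Socs2 had few UMIs beside means of 11.7 and 16.9 per chemosensory receptor gene. In keratinocyte-marker spots, Socs1, the inhibitor closest to Socs3, had 37.2 and 67.2 CPM, a log2 ratio of 0.85 (0.30 to 1.40), and Stat5b had 41.1 and 78.8 CPM (0.94, 0.43 to 1.45). With TMM scaling the last ratio was 0.11 and that of Socs1 0.03.

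The 20 known STAT3 target genes were split. Over the section 6 were at least 1.5-fold lower in S1pr2 f/f K14-Cre (12.5% of all genes) and 2 that much higher (39.8%). The median log2 ratio of the 20 was −0.26 beside 0.34 for all genes. The lower ones included the alarmins of the inflamed epidermis: S100a9, which differed most, had 7253 and 822 CPM (log2 ratio −3.14, −3.20 to −3.08) and S100a8 had 5594 and 1749 CPM (−1.68, −1.72 to −1.63). Saa3, an acute phase protein, had 1000.4 and 305 CPM (−1.71, −1.82 to −1.61), and Pim1, a survival kinase, had 133 and 68.0 CPM (−0.96, −1.20 to −0.73). The other lower genes were Bcl2l1 (−0.71) and Icam1 (−1.93, on 113 and 16 UMIs), and the higher ones Fos (0.94, 0.63 to 1.25) and Fgg (2.13, 1.28 to 3.04, on 17 and 40 UMIs). Of the 19 with at least 30 UMIs in keratinocyte-marker spots, 5 were lower (18.5% of all genes) and 5 higher (36.6%). The median there was 0.37 beside 0.25 for all genes. There S100a9, S100a8, Pim1, Mcl1 and Saa3 were lower, with log2 ratios of −2.93, −1.32, −1.46, −0.92 and −0.59, and Fgg, Cebpd, Timp1, Fos and Bcl3 were higher, with 3.85, 0.98, 0.88, 0.81 and 0.72. The ratios of Fos and Bcl3 turned with TMM scaling, to −0.02 and −0.11. Those of Cebpd and Timp1 went to 0.15 and 0.06, under 1.5-fold, and that of Fgg to 3.02. This scaling moves every ratio in these spots by −0.83, so the 5 lower genes could only go lower with it. Cebpb, a transcription factor, had 894 and 1205 CPM (0.43, 0.31 to 0.55), which turned to −0.40. Many of these genes have other regulators too. Differentiated keratinocyte markers were lower in the same direction in these spots (39726 and 6380 CPM), and their part in the result was not tested.

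**Figure D5:**
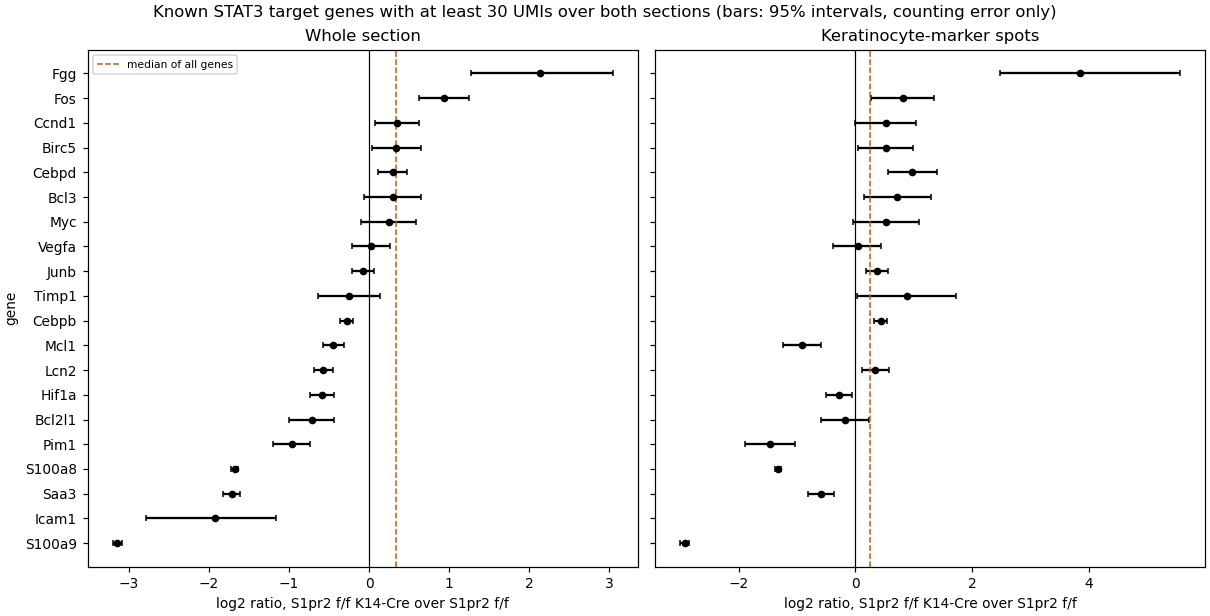
Log2 ratio of S1pr2 f/f K14-Cre over S1pr2 f/f for the known STAT3 target genes with at least 30 UMIs over both sections, over the whole section and in keratinocyte-marker spots, with 95% intervals of the counts as bars and the median of all genes as a dashed line. S100a9 lies farthest to the left in both panels (−3.14 and −2.93) and Fgg farthest to the right (2.13 and 3.85, on few UMIs).

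The genes whose levels over 10 values (5 marker classes in 2 sections) were most like those of each member are given as a description among 2788 genes with at least 200 UMIs in each section. For Il6st they were Pmp22, Camk1 and Cfp (Pearson r on log2 CPM of 0.993, 0.987 and 0.986), for Osmr S100a10, Cap1 and Tpp1 (0.981, 0.938 and 0.932), and for Jak1 Ncl, Stip1 and Metrnl (0.950, 0.933 and 0.922). For Il4ra they were Grk6, Mbtps1 and Ssr3 (0.947, 0.931 and 0.930), for Stat3 Abcf1, Emc3 and Gng12 (0.909, 0.896 and 0.883), and for Socs3 Mbp, Tmem263 and Naxd (0.900, 0.897 and 0.887). The 10 values share libraries and base levels of the layers, and Il20ra and Il20rb had too few UMIs for the comparison.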

How the data were processed

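Skin sections 10 μm thick, formalin-fixed and paraffin-embedded, were assayed on capture areas of 11 mm with the Visium CytAssist probe assay. The values deposited by the authors are whole UMI counts of each gene in every tissue-covered spot, not normalized, made with Space Ranger 3.0.0 per the file headers and build mm10 per the submitters' processing notes, and the study's methods name Partek Flow for processing. Both sections were used, each as 1 sample of its genotype, grouped by the labels.

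Spots with at least 500 UMIs were kept (1096 of 1282 and 947 of 981). For each marker class, log2(1 + marker UMIs per 10000) was converted to z over the section, and a spot joined the class with the highest z if that was at least 0.5. There were 63 and 24 spots within 0.1 of this limit, and 59 and 26 spots joined no class. UMIs were summed by region and divided by all UMIs of the region. A gene was counted as higher or lower past 1.5-fold with at least 30 UMIs over both sides, and list medians used a pseudocount of 0.5 UMIs. The genes named are all 8 members, the genes of the 9 pathway lists past this fold, further list genes given beside a member, which were chosen after their values were seen, and the 3 genes most like each member with at least 200 UMIs in each section. The members and lists were chosen with earlier results of these data known. UMIs of 1 gene were clumped in spots (1.27 to 2.23 per spot with a UMI), so the intervals are narrower than the true error. All 8 members matched RefSeq promoters of GRCm38.p6, whose coordinates are those of mm10. The scripts were tested on simulated data. The tools were Python 3.11.15, numpy 2.4.6, scipy 1.17.1, scanpy 1.11.5, igraph 0.11.9, and edgeR 4.0.16 in R 4.3.3 for TMM factors. The alternatives were TMM scaling, the mean receptor gene taken off, spots weighted equally or thinned, other spot filters, folds and UMI minimums, and layers set by Leiden clusters, higher scores or position. Some genes of the pathway lists are not reported here.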

Additional observations from a re-analysis of the deposited data

How the results depend on the processing

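No paired analysis was possible because each genotype had 1 section, and for the same reason no replicate could be left out. Of 48 log2 ratios of members over the section under other settings, 44 kept their direction, as did all 18 of those past 1.5-fold in the main analysis. In keratinocyte-marker spots 74 of 88 kept it, and 41 of 44 past the fold. The exceptions were Il6st and Il4ra with TMM scaling (−0.20 and −0.12) and Il6st in spots with at least 5% keratinocyte-marker UMIs (−0.24). TMM scaling lowered every ratio of the section and of these spots, so it could not turn those below 0. Of 112 ratios between layers 107 kept their direction, and 48 of 49 past the fold. The exception was Il20ra in S1pr2 f/f K14-Cre with the highest 10% of spots (−1.57).

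The number of members past the fold moved more. Over the section it was 1 higher and 2 lower, and 0 and 3 with TMM scaling, 1 and 3 less the mean receptor gene, 2 and 1 with spots weighted equally or thinned, and 0 and 1 at 2-fold. In keratinocyte-marker spots it was 2 higher and 2 lower, and 0 and 6 with TMM, 1 and 4 less the mean receptor gene, 3 and 1 when thinned, 0 and 3 with at least 5% keratinocyte-marker UMIs, 1 and 2 with Leiden clusters, 1 and 3 without the hair class or with the highest 10% of spots, and 0 and 1 at 2-fold. For keratinocyte-marker spots over the other layers of S1pr2 f/f it was 2 higher and 1 lower, and 2 and 2 at a z of at least 1 or without the hair class, 2 and 3 with the highest 10% of spots, and 1 and 1 in the uppermost spots by position. In S1pr2 f/f K14-Cre it was 1 higher and 2 lower, and 2 and 1 with Leiden clusters or the uppermost spots by position, 1 and 1 without the hair class, and 2 and 2 with the highest 10% of spots. The share of all genes past the fold under each setting is not given here. The counts are therefore not read as a result about the members. The cause of these moves was not tested, except that a higher fold admits fewer genes. The settings without the hair class, with at least 5% keratinocyte-marker UMIs, with 4 layers of equal weight and by distance were chosen after seeing the data. Depth limits Il20ra most, whose ratio over the section has a counting interval of −0.58 to 0.85 and ran from −0.78 to 1.02 under other settings, and thinned spots hold too few UMIs to compare how often both IL-20 receptor chains share a spot.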
